A study of Mus musculus with 15 samples.

Results

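Expression of 10 genes of glycolysis was followed in mouse embryonic stem cells (mESC) before and after knockdown of Smarcb1. The 10 genes, Slc2a1, Slc2a3, Hk1, Hk2, Gpi1, Pfkp, Aldoa, Pgk1, Pkm and Ldha, were chosen by symbol for their place in the pathway, with earlier results of these data known, and each had 1 entry among the 55228 listed genes. RNA of 15 libraries in 5 groups of 3 was sequenced as single-end reads. All cells were of the line 81K1, which is based on OG2 and is a single clone with a doxycycline-dependent shRNA to Smarcb1 in the Rosa26 locus. The cells grew on gelatine in medium with LIF. The kd groups received 1 µg doxycycline per ml medium daily and were taken at 48 h, 72 h and 240 h, and the ctrl groups received none and were taken at 48 h and 240 h. At 72 h there was no control of its own, so the 72 h kd libraries were set against the same 48 h ctrl libraries as the 48 h kd libraries, and these 2 comparisons are not independent. Doxycycline-treated cells without the shRNA were not analysed here, so effects of the drug and of the knockdown cannot be told apart.

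Glycolysis turns glucose into pyruvate and yields ATP without oxygen. Glucose enters through facilitative transporters, is phosphorylated by hexokinases and committed to the pathway by phosphofructokinase, and the pyruvate made at its end is either oxidised in mitochondria or reduced to lactate by lactate dehydrogenase and exported. Pluripotent stem cells are known for a high rate of glycolysis, and many genes of the pathway are known targets of hypoxia-inducible factors and of Myc, both of which bind short sequences that contain CGTG. Smarcb1 is a core subunit of the canonical BAF complex and of PBAF, which move nucleosomes.

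Values are FPKM as deposited, here reads over the whole span of a gene per kilobase of span and per 1000000 reads, introns included. Totals lay between 11074998 and 14515300 reads, and the members had between 437 reads, for Hk1, and 43332 reads, for Pkm, in a library. The 48 h kd replicate 2 stood apart from its group, with the highest mitochondrial share of all libraries (2.35% against 0.469% to 1.81% in the others) and the lowest value of its group for Slc2a1, Slc2a3, Aldoa, Pgk1, Pkm and Ldha, so calls of members that change without it are given with and without it. Smarcb1 lay between 3.31 and 3.93 FPKM in the 6 ctrl libraries and between 0.503 and 0.82 FPKM in the 9 kd libraries. The 7 embryonic stem cell markers were all detected in every group. Their summed level was 800 to 843 FPKM in 48 h ctrl, 683 to 762 FPKM in 48 h kd and 778 to 814 FPKM in 72 h kd libraries. At 240 h it was 762 to 801 FPKM in ctrl and 626 to 635 FPKM in kd libraries. Of these markers, Klf4 and Tbx3 were called lower in all 3 knockdown comparisons and Esrrb and Zfp42 at 240 h, by the rule given below. The summed level of the 4 neural progenitor markers was 7.4 to 8.62 FPKM in ctrl and 13 to 20.8 FPKM in kd libraries. Of these, Sox1 was called higher in all 3 knockdown comparisons, while Nes was at -0.43 at 48 h and -0.48 at 72 h and was called higher at 240 h alone (0.64), and the other 2 were too low to be tested. The summed levels of primitive endoderm, trophoblast, mesoderm and fibroblast markers were at most 1.7 FPKM in any library. At 240 h the trophoblast sum was 0.759 to 0.931 FPKM in ctrl and 1.52 to 1.7 FPKM in kd libraries. At 48 h it went the other way, with 0.699 to 0.8 FPKM in ctrl and 0.393 to 0.475 FPKM in kd libraries. The fibroblast sum at 240 h was 0.853 to 0.965 FPKM in ctrl and 1.33 to 1.55 FPKM in kd libraries. Of the 5 fibroblast markers 2 were tested there, and Col1a1 was called higher while the other was lower. Each passed the minimum of 0.5 FPKM given below only through the group where it is high. The primitive endoderm sum was 0.559 to 0.57 FPKM in 48 h ctrl, 0.218 to 0.296 FPKM in 48 h kd and 0.134 to 0.225 FPKM in 72 h kd libraries. At 240 h that sum was 0.744 to 0.775 FPKM in ctrl and 0.509 to 0.643 FPKM in kd libraries. Of the defining markers of all these other cell types, Olig2, Kdr, Dcn and Lum were at 0 in every library of at least 1 group. The part of other cell types in the results below was not tested. In bulk RNA, fewer cells of a type and less RNA per cell cannot be told apart.

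The promoters of 3 members are shown because Pfkp and Pgk1 were the 2 members called lower in every knockdown comparison and Ldha had the widest change at 72 h after Pfkp. Each window runs 5′ to 3′ along the gene from 250 bases before to 50 bases after an annotated start (RefSeq, GRCm38.p6), for Ldha the first of 2. Capitals mark ACGTG or GCGTG on either strand, so that CACGT and CACGC are marked too. The windows are chr13:6648722-6649021 on the minus strand for Pfkp, chrX:106186850-106187149 on the plus strand for Pgk1 and chr7:46845554-46845853 on the plus strand for Ldha.
Pfkp: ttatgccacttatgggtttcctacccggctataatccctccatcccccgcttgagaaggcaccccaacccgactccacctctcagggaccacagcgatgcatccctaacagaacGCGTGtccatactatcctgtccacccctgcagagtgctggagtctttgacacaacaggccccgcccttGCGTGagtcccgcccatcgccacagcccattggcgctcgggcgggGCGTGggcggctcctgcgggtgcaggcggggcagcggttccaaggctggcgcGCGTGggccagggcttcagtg
Pgk1: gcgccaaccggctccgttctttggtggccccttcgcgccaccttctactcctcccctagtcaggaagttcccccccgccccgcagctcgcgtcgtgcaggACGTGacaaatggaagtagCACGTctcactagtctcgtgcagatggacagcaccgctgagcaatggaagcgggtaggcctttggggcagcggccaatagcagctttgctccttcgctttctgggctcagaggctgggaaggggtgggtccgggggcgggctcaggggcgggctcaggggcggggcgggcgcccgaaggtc
Ldha: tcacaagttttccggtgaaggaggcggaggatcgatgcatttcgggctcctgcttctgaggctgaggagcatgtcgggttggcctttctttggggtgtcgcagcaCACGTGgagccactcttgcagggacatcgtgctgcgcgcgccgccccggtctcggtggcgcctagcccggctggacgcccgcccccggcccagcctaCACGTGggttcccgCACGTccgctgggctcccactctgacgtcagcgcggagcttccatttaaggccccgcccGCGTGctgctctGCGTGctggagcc

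In these windows Pfkp held 4 matches to GCGTG and 0 to ACGTG, Pgk1 held 2 matches to ACGTG and 0 to GCGTG, and the Ldha window held 5 matches to ACGTG and 2 to GCGTG. Ldha has a second annotated start, whose window (chr7:46846832-46847131, not printed) held 0 matches to ACGTG and 2 to GCGTG. A palindromic CACGTG, present at 2 places of the Ldha window, counts once on each strand. RefSeq windows were at hand for 9 of the 10 members, 14 windows in all, some genes having several starts. ACGTG was found in at least 1 window of 7 of these 9 genes, against 21.8% of all 27025 genes with a window, and GCGTG in 4 of 9, against 35.2%. The members' windows had a GC content of 51.3% to 67.3%, most of them above the median of 52.7% over all 32851 windows. The members also had more windows per gene, 14 for 9 genes against 32851 for 27025. The shares above are thus matched neither for GC content nor for the number of windows. A match is a stretch of letters, and no binding was measured here.

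**Figure D1:**
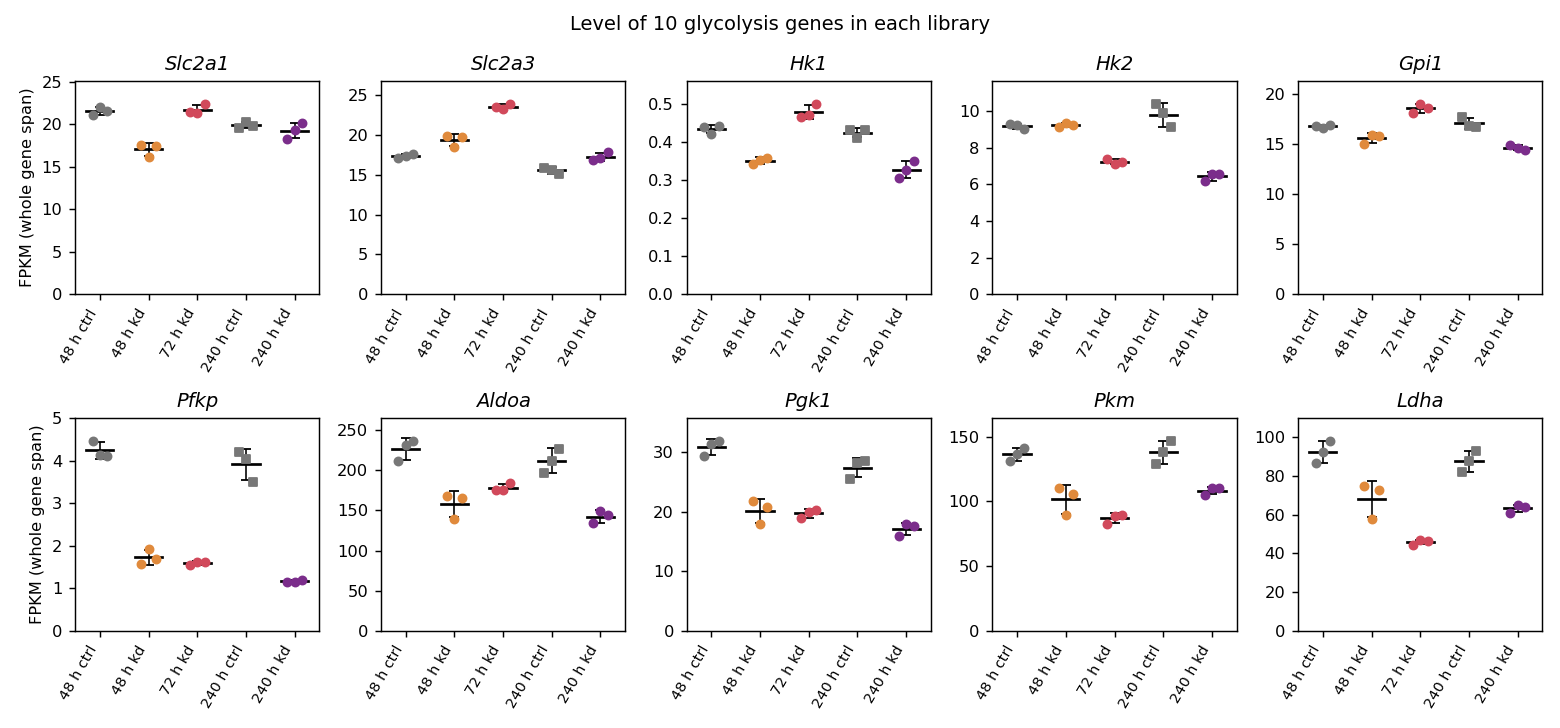
Level of the 10 glycolysis genes in each of the 15 libraries, in FPKM over the whole gene span, with each point 1 library, lines the group mean and bars the SD (n = 3), grey for ctrl and coloured for kd. Pfkp, Aldoa, Pgk1, Pkm and Ldha lay lower in all kd libraries than in the ctrl libraries they were compared with, whereas Slc2a3 lay higher.

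The 48 h and 240 h kd groups were compared with the ctrl group of the same time, and 72 h kd with 48 h ctrl, to ask which genes of the pathway change, and when, after Smarcb1 is lost. At 72 h, knockdown and longer culture cannot be told apart, and 240 h ctrl was used there as another control. A gene was called when the adjusted p-value (limma, two-sided, Benjamini-Hochberg over all genes tested) was under 0.05 and the absolute log2 fold change was above 0.58. Genes with a mean under 0.5 FPKM in the libraries compared were not tested, which left out Hk1, so 9 of the 10 members were tested in every comparison. All calls among the members were of lower expression in kd. At 48 h, Pfkp and Pgk1 fell, 2 of 9 members, where 3.99% of all 11420 genes tested were called and 2.01% were called lower. At 72 h, Pfkp, Pgk1, Pkm and Ldha fell, 4 of 9, where 13.5% of 11440 genes were called and 5.3% were called lower. At 240 h, Hk2, Pfkp and Pgk1 fell, 3 of 9, where 8.91% of 11401 genes were called and 4.12% were called lower. The call of Pgk1 at 48 h rested on 1 library and is given with and without it below.

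By the adjusted p-value alone, 5 of 9 members at 48 h were lower, against 16.1% of all genes tested in either direction. At 72 h the adjusted p-value alone held for 8 of 9, 6 lower and 2 higher, where 55% of all genes passed, and at 240 h for 8 of 9, 7 lower and 1 higher, where 33.8% passed. The kd and ctrl libraries did not overlap for 8 of 9 members in each of the 3 comparisons, where the same held for 39.4% of all genes at 48 h, for 64.7% at 72 h and for 50.2% at 240 h. The median log2 fold change of the members tested was -0.43 at 48 h, -0.34 at 72 h and -0.47 at 240 h, where the median over all genes tested was 0.0057 at 48 h, 0.0090 at 72 h and -0.0016 at 240 h. Without 48 h kd replicate 2 the median of the members at 48 h was -0.32, with Aldoa at -0.44, Pkm at -0.34 and Ldha at -0.32, and Slc2a3 (0.19, adjusted p = 0.0259, limma) and Ldha (adjusted p = 0.0358, limma) then passed by the adjusted p alone.

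**Figure D2:**
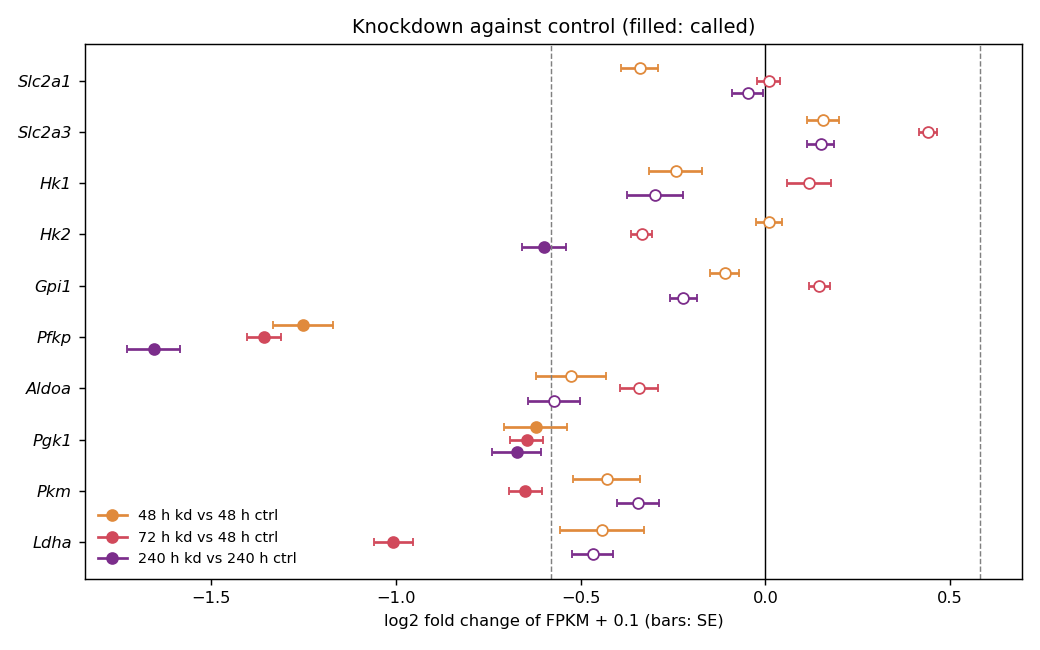
Log2 fold change of each member in the 3 knockdown comparisons, on the log2(FPKM + 0.1) scale, with the SE from limma as bars and dashed lines at the threshold of 0.58. Filled points were called; Hk1 is drawn from a fit without the FPKM minimum, and the widest change is that of Pfkp at 240 h (-1.66).

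Levels of different genes are compared here per exonic kilobase, as FPKM over the whole span is lower the longer the introns. In 48 h ctrl, in reads per exonic kilobase per 1000000 reads (mean ± SD, n = 3), Pkm was the highest member at 629 ± 23.3. Aldoa at 429 ± 26.3 and Ldha at 395 ± 25.1 overlapped each other, and Pgk1 followed at 229 ± 10.1. Slc2a1 at 180 ± 3.62 overlapped Slc2a3 at 177 ± 2.79, and Hk2 at 75.9 ± 1.22 overlapped Gpi1 at 75.4 ± 0.618. Pfkp at 21.9 ± 1.04 and Hk1 at 5.65 ± 0.137 were the lowest, without overlap with their neighbours. Reads within introns are included in these levels, as the deposited counts do not separate them.

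The glucose transporters Slc2a1 and Slc2a3 followed different courses. Slc2a1 (chr4:119108711-119137983, mm10) encodes Glut1, the widely expressed basal transporter. It had 21.1, 22 and 21.6 FPKM in 48 h ctrl, 17.6, 16.1 and 17.4 FPKM in 48 h kd and 21.5, 21.3 and 22.4 FPKM in 72 h kd. At 240 h it had 19.6, 20.3 and 19.8 FPKM in ctrl and 18.3, 19.3 and 20.1 FPKM in kd. The 48 h kd libraries thus lay below all others, while the 72 h kd libraries overlapped 48 h ctrl and the 240 h kd libraries overlapped 240 h ctrl. Limma gave a log2 fold change of -0.34 ± 0.05 (SE) at 48 h, with an adjusted p of 0.0109, short of the fold threshold. It was 0.01 ± 0.03 at 72 h (adjusted p = 0.836, limma) and -0.05 ± 0.04 at 240 h (adjusted p = 0.429, limma). An unstranded count cannot separate Slc2a1 from the antisense gene Gm12868, which overlaps 4235 bases of it and had a mean of 4528 reads where Slc2a1 had 7300.

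Slc2a3 (chr6:122727809-122801640) encodes Glut3, a transporter with a high affinity for glucose. It had 17.1, 17.4 and 17.6 FPKM in 48 h ctrl, 19.9, 18.5 and 19.7 FPKM in 48 h kd and 23.5, 23.3 and 23.9 FPKM in 72 h kd. The 240 h libraries had 15.9, 15.6 and 15.1 FPKM as ctrl and 16.8, 17.1 and 17.8 FPKM as kd. In all 3 comparisons every kd library lay above every ctrl library, most widely at 72 h. On the log2 scale, kd differed from ctrl by 0.15 ± 0.04 at 48 h (adjusted p = 0.0683, limma), 0.44 ± 0.03 at 72 h (adjusted p = 0.00012, limma) and 0.15 ± 0.04 at 240 h (adjusted p = 0.0272, limma). None of these reached the fold threshold. Set against 240 h ctrl, the 72 h difference was 0.60 and was called.

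Of the reads per exonic kilobase summed over both transporters, Slc2a3 made up 49.5% ± 0.414 (SD, n = 3) in 48 h ctrl, and 58.1% ± 0.272 after 48 h and 57% ± 0.387 after 72 h of knockdown. At 240 h its share was 48.8% ± 0.742 in ctrl and 52.2% ± 0.482 in kd. The shares of kd and ctrl did not overlap at any time. With 3 libraries a group, the smallest two-sided p of an exact permutation test is 0.1, so shares are given without a test.

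The hexokinases phosphorylate glucose and so hold it in the cell. Hk2 (chr6:82725025-82774454), the inducible form, had 9.28, 9.22 and 9 FPKM in 48 h ctrl, 9.12, 9.34 and 9.22 FPKM in 48 h kd and 7.41, 7.09 and 7.24 FPKM in 72 h kd. Later it had 10.4, 9.89 and 9.12 FPKM in 240 h ctrl and 6.16, 6.57 and 6.57 FPKM in 240 h kd. The 48 h groups overlapped, and the 72 h and 240 h kd libraries lay below all ctrl libraries. The log2 fold change was 0.01 ± 0.03 at 48 h (adjusted p = 0.883, limma), -0.34 ± 0.03 at 72 h (adjusted p = 0.000393, limma) and -0.60 ± 0.06 at 240 h (adjusted p = 0.00117, limma), where Hk2 was called at 65.6% of the ctrl mean. This call was close to the fold threshold and was lost at -0.56 without 240 h ctrl replicate 1 and at -0.57 without 240 h kd replicate 1. Of the members, only Hk2 was called in the test of whether the effect at 240 h differs from that at 48 h, by -0.61 ± 0.07 (interaction term, adjusted p = 0.000262, limma), where 5.82% of all 11412 genes tested were called. Without 240 h ctrl replicate 1 this difference was -0.56 and without 240 h kd replicate 1 it was -0.58, both short of the fold threshold.

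Hk1 (chr10:62268855-62379908), the form bound to mitochondria in most tissues, had a mean under the FPKM minimum, with 437 to 739 reads per library over a span of 111054 bases, and is given as a description. It lay between 0.412 and 0.442 FPKM in the 6 ctrl libraries, between 0.342 and 0.359 FPKM after 48 h of knockdown, between 0.466 and 0.501 FPKM after 72 h and between 0.306 and 0.35 FPKM after 240 h. Hence the 48 h and 240 h kd libraries lay below, and the 72 h kd libraries above, all ctrl libraries. In a fit without the minimum, Hk1 differed by -0.24 ± 0.07 at 48 h (adjusted p = 0.15, limma), 0.12 ± 0.06 at 72 h (adjusted p = 0.234, limma) and -0.30 ± 0.08 at 240 h (adjusted p = 0.0623, limma). In 2 fits chosen after the data were seen, the adjusted p was 0.0294, 0.102 and 0.0119 with a minimum of 10 reads (limma) and 0.00331, 0.023 and 0.000149 with voom on the recovered reads, in the order of the times, and no fit reached the fold threshold. Hk2 made up 93.1% ± 0.228 (SD, n = 3) of the summed hexokinase reads per exonic kilobase in 48 h ctrl and at least 90.2% in every library.

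Gpi1 (chr7:34201330-34230336), the glucose-6-phosphate isomerase, had the narrowest range of group means among the members, 0.343 on the log2 scale beside 0.348 for Slc2a1. It had 16.8, 16.6 and 16.9 FPKM in 48 h ctrl, 15, 15.9 and 15.8 FPKM in 48 h kd and 18.1, 19.0 and 18.6 FPKM in 72 h kd. At 240 h it had 17.7, 16.8 and 16.7 FPKM in ctrl and 14.9, 14.6 and 14.4 FPKM in kd. The kd libraries lay below ctrl at 48 h and 240 h and above ctrl at 72 h, without overlap. Limma gave log2 fold changes of -0.11 ± 0.04 at 48 h (adjusted p = 0.121, limma), 0.15 ± 0.03 at 72 h (adjusted p = 0.00745, limma) and -0.22 ± 0.04 at 240 h (adjusted p = 0.00709, limma), in each case short of the fold threshold.

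Among the members, the widest change between kd and ctrl was in Pfkp (chr13:6579768-6648777), which encodes the platelet type of phosphofructokinase, the enzyme of the committed step. Pfkp had 4.48, 4.15 and 4.11 FPKM in 48 h ctrl, 1.58, 1.93 and 1.68 FPKM in 48 h kd and 1.54, 1.63 and 1.62 FPKM in 72 h kd. The 240 h libraries had 4.2, 4.04 and 3.51 FPKM as ctrl and 1.16, 1.16 and 1.20 FPKM as kd. All 9 kd libraries lay below all 6 ctrl libraries, and the 240 h kd libraries lay below the other kd libraries. The mean of 48 h kd was 40.7% of ctrl, that of 72 h kd 37.6% and that of 240 h kd 29.9%. On the log2 scale, kd differed from ctrl by -1.25 ± 0.08 at 48 h (adjusted p = 0.00138, limma), -1.36 ± 0.05 at 72 h (adjusted p = 3.39e-05, limma) and -1.66 ± 0.07 at 240 h (adjusted p = 0.000104, limma). The effect at 240 h minus that at 48 h was -0.40 ± 0.11 (interaction term, adjusted p = 0.0396, limma), short of the fold threshold, where 15.6% of all genes had an adjusted p under 0.05. Under 12 of 23 alternatives its adjusted p was not under 0.05, with values of -0.48 to -0.23 and an adjusted p of up to 0.1 (limma) over all of them. Pfkp shares 748 bases with Pitrm1 on the other strand, and Pitrm1 itself differed by 0.17 ± 0.05 at 48 h, 0.24 ± 0.04 at 72 h and -0.02 ± 0.03 at 240 h.

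By RNA reads per exonic kilobase, Pfkp was not the highest phosphofructokinase gene of these cells. Pfkl and Pfkm, the liver and muscle types, were set beside it after their values were seen. The order depends on the annotated exonic length, which is 13401 bases for Pfkp, 6675 for Pfkl and 3340 for Pfkm. In plain reads per library, Pfkp (3178 to 4242) and Pfkl (3817 to 4608) overlapped in 48 h ctrl. In 48 h ctrl, Pfkl made up 60% ± 1.75 (SD, n = 3) of the summed reads per exonic kilobase, Pfkp 25% ± 1.64 and Pfkm 15% ± 0.168. The share of Pfkp was 15.2% ± 2.48 after 48 h and 11.7% ± 0.547 after 72 h of knockdown. It was 25.2% ± 2.24 in 240 h ctrl and 10.9% ± 0.36 after 240 h of knockdown. Pfkm took 22.2% ± 0.488 after 48 h and 29% ± 1.15 after 72 h of knockdown, and 16.3% ± 0.583 in 240 h ctrl against 28% ± 0.81 after 240 h of knockdown. Pfkl kept a share of 58.5% to 62.6% in the group means, while its own level was lower in kd. It had 15.2 ± 0.835 FPKM in 48 h ctrl, 10.7 ± 1.02 FPKM in 48 h kd and 12 ± 0.539 FPKM in 72 h kd. At 240 h it had 13.5 ± 0.366 FPKM in ctrl and 9.76 ± 0.548 FPKM in kd. Pfkm per exonic kilobase was at 13.2 ± 0.423 in 48 h ctrl and 13.1 ± 0.917 in 48 h kd. Its larger share at 48 h thus came with lower Pfkp and Pfkl. The sum of the 3 genes was 87.6 ± 2.63 reads per exonic kilobase per 1000000 reads in 48 h ctrl, then 59.1 ± 3.51 after 48 h and 70.2 ± 2.41 after 72 h of knockdown, beside 80.1 ± 0.892 in 240 h ctrl and 55.4 ± 2.15 after 240 h of knockdown. Pfkm itself was called higher at 72 h, at 0.58 ± 0.05 and at the threshold (adjusted p = 0.000361, limma), and this call was lost at 0.56 without 48 h ctrl replicate 2, at 0.56 without 72 h kd replicate 1 and at 0.57 without 72 h kd replicate 3.

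**Figure D3:**
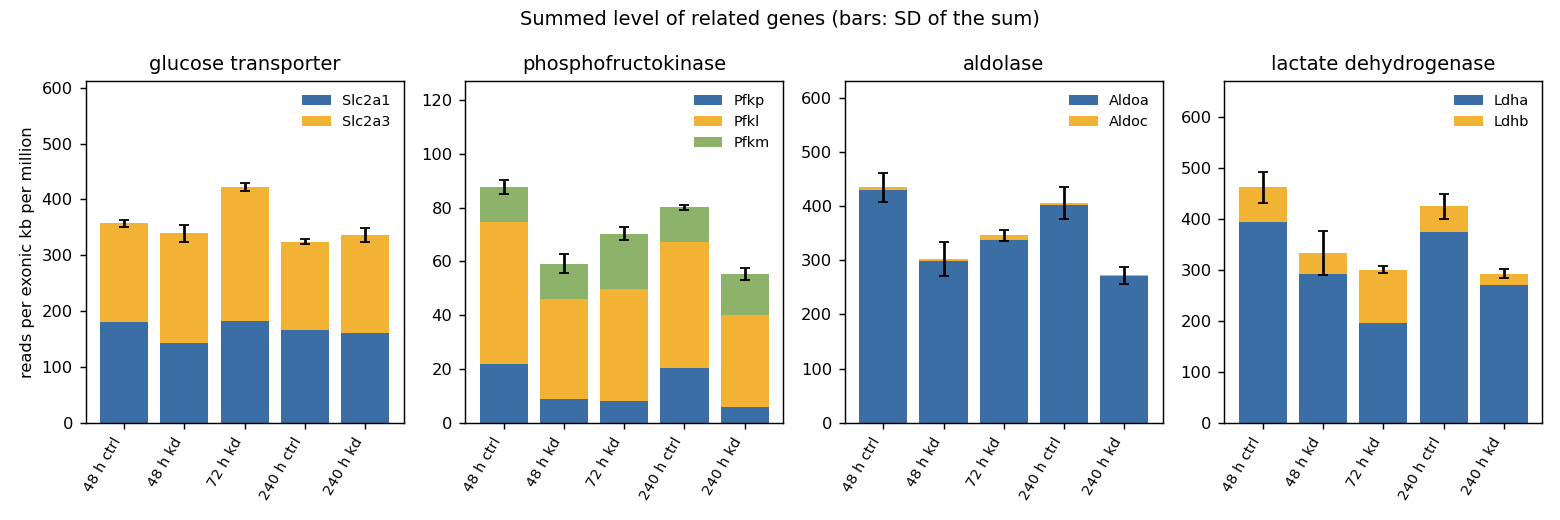
Summed level of the glucose transporters, phosphofructokinases, aldolases and lactate dehydrogenases in each group, in reads per exonic kilobase per 1000000 reads (mean of 3 libraries, stacked by gene, with the SD of the sum as bars). Pfkp takes 25% of the phosphofructokinase level in 48 h ctrl and 10.9% in 240 h kd, and Ldhb takes 34.9% of the lactate dehydrogenase level in 72 h kd.

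Aldoa (chr7:126795234-126800751) encodes the main aldolase, which splits the 6-carbon sugar. It had 211, 231 and 237 FPKM in 48 h ctrl, 168, 139 and 166 FPKM in 48 h kd and 175, 176 and 184 FPKM in 72 h kd. Later it had 196, 212 and 227 FPKM in 240 h ctrl and 134, 149 and 144 FPKM in 240 h kd. No kd library reached the level of a ctrl library in any of the 3 comparisons. The log2 fold change was -0.53 ± 0.09 at 48 h (adjusted p = 0.0193, limma), -0.34 ± 0.05 at 72 h (adjusted p = 0.00302, limma) and -0.57 ± 0.07 at 240 h (adjusted p = 0.00257, limma). At 240 h it was just short of the fold threshold, and it was called at -0.63 without 240 h ctrl replicate 1, at -0.61 without 240 h kd replicate 2 and at -0.58 without 240 h kd replicate 3. Fam57b lies over 55.9% of the Aldoa span on the other strand but had a mean of 722 reads against 12597 for Aldoa.

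Pgk1 (chrX:106187100-106203699) encodes phosphoglycerate kinase, the first enzyme of the pathway to yield ATP, and was lower by a similar amount at all 3 times. It had 29.4, 31.5 and 32.0 FPKM in 48 h ctrl, 21.8, 17.9 and 20.8 FPKM in 48 h kd and 18.9, 20.0 and 20.3 FPKM in 72 h kd. At 240 h it had 25.6, 28.2 and 28.6 FPKM in ctrl and 16.0, 17.9 and 17.6 FPKM in kd. All 9 kd libraries lay below all 6 ctrl libraries. Limma gave log2 fold changes of -0.62 ± 0.09 at 48 h (adjusted p = 0.00897, limma), -0.65 ± 0.05 at 72 h (adjusted p = 0.000208, limma) and -0.67 ± 0.07 at 240 h (adjusted p = 0.00114, limma). The means were 65.1%, 63.8% and 62.6% of ctrl. Without 48 h kd replicate 2 the difference at 48 h was -0.54 (adjusted p = 0.00851, limma) and was no longer called, and with the 240 h ctrl libraries as control the difference at 72 h was -0.47 and was not called either. The interaction was -0.05 ± 0.11 (adjusted p = 0.799, limma), with a 95% interval of -0.30 to 0.20.

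Pkm (chr9:59656368-59679375) encodes the pyruvate kinase of most tissues, and the deposited values do not separate its splice forms. A further entry within it, Gm49759, had a mean of 3516 reads against 32878 for Pkm. It had 131, 137 and 141 FPKM in 48 h ctrl, 110, 89.1 and 106 FPKM in 48 h kd and 82.9, 88.7 and 89.7 FPKM in 72 h kd. The 240 h libraries had 129, 138 and 147 FPKM as ctrl and 105, 110 and 110 FPKM as kd. All 9 kd libraries lay below all 6 ctrl libraries, and the 72 h kd libraries were the lowest apart from 48 h kd replicate 2, which lay among them. On the log2 scale, kd differed from ctrl by -0.43 ± 0.09 at 48 h (adjusted p = 0.0313, limma), -0.65 ± 0.04 at 72 h (adjusted p = 0.000195, limma), where Pkm was called, and -0.35 ± 0.06 at 240 h (adjusted p = 0.00758, limma).

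Ldha (chr7:46841475-46855627) encodes the lactate dehydrogenase subunit that favours the making of lactate. It had 86.6, 92.2 and 98.3 FPKM in 48 h ctrl, 74.6, 57.6 and 72.7 FPKM in 48 h kd and 44.5, 46.7 and 46.4 FPKM in 72 h kd. Later it had 82.2, 87.6 and 93.1 FPKM in 240 h ctrl and 61.1, 64.8 and 63.9 FPKM in 240 h kd. The kd libraries lay below all ctrl libraries at each time, and the 72 h kd libraries lay below all others. The log2 fold change was -0.44 ± 0.11 at 48 h (adjusted p = 0.0539, limma), -1.01 ± 0.05 at 72 h (adjusted p = 8.94e-05, limma), where Ldha was called at 49.7% of the ctrl mean, and -0.47 ± 0.06 at 240 h (adjusted p = 0.00229, limma). Between 72 h kd and 48 h kd, Ldha differed by -0.56 ± 0.11 (adjusted p = 0.0119, limma), and without 48 h kd replicate 2 by -0.68, which was called.

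The second lactate dehydrogenase subunit, Ldhb, which favours the use of lactate, was not a member but took the opposite course to Ldha at 72 h. It had 5.65, 5.93 and 6.57 FPKM in 48 h ctrl, 3.79, 3.38 and 4.03 FPKM in 48 h kd and 9.26, 9.74 and 8.94 FPKM in 72 h kd. At 240 h it had 4.38, 4.62 and 4.51 FPKM in ctrl and 1.86, 2.07 and 2.05 FPKM in kd. Thus Ldhb fell at 48 h by 0.68 ± 0.09 on the log2 scale (adjusted p = 0.00687, limma), rose at 72 h by 0.62 ± 0.07 (adjusted p = 0.000782, limma) and fell at 240 h by 1.14 ± 0.05 (adjusted p = 0.000111, limma). The call at 72 h was lost at 0.57 without 48 h ctrl replicate 1, and the difference was 1.03 with 240 h ctrl in place of 48 h ctrl. Ldhb made up 14.7% ± 0.239 (SD, n = 3) of the summed lactate dehydrogenase level per exonic kilobase in 48 h ctrl, and 12.7% ± 0.799 after 48 h and 34.9% ± 1.02 after 72 h of knockdown. At 240 h its share was 12% ± 0.547 in ctrl and 7.67% ± 0.206 in kd.

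Untreated cells were compared between 240 h and 48 h to see what changed without knockdown. Culture time and other differences between these harvests cannot be told apart. None of the 9 members was called, where 0.475% of all 11359 genes were, and none had an adjusted p under 0.05 by limma, where 3.44% of all genes did. Without adjustment, 3 of 9 members had a p under 0.05 by limma, where 26.5% of all genes did, at -0.12 ± 0.03 for Slc2a1, -0.16 ± 0.03 for Slc2a3 and -0.17 ± 0.06 for Pgk1. The median of the members was -0.10, and it was 0.02 with the values rescaled to TPM, a scaling that moved the median of all genes from -0.02 to 0.09. Apart from the members, Ldhb had a log2 difference of -0.42 ± 0.06 (adjusted p = 0.0433, limma), short of the fold threshold.

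Within the knockdown, 72 h kd was compared with 48 h kd. None of the 9 members was called, where 7.45% of all 11500 genes were, and 5 of 9 had an adjusted p under 0.05 by limma, where 35.5% of all genes did. These were Slc2a1 at 0.35 ± 0.05, Slc2a3 at 0.28 ± 0.04 and Gpi1 at 0.26 ± 0.04, all higher at 72 h, and Hk2 at -0.34 ± 0.03 and Ldha at -0.56 ± 0.11, both lower. Pfkp at -0.11 ± 0.08 and Pgk1 at -0.03 ± 0.08 had 95% intervals of -0.30 to 0.09 and of -0.23 to 0.18. With Ldha the one exception, given above, leaving out 48 h kd replicate 2 called no further member. Of the other glycolysis genes, 3 were called, all higher at 72 h. Ldhb rose by 1.30 ± 0.07 (adjusted p = 0.000767, limma) and Aldoc, an aldolase of nervous tissue, by 1.36 ± 0.15 (adjusted p = 0.00291, limma). Pfkm rose by 0.59 ± 0.07 (adjusted p = 0.00281, limma), close to the threshold. Its call was lost at 0.54 without 48 h kd replicate 2, at 0.561 without 72 h kd replicate 1 and at 0.578 without 72 h kd replicate 3. It was also lost at 0.578 when centred on the median and at 0.36 with a pseudocount of 1. Among the regulators and the hypoxia and Myc lists, Txnip was called at 0.63, Epas1 at -0.64 and Myc at -1.23.

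Of 23 further glycolysis genes listed beside the members, 13 were tested at 48 h, 14 at 72 h and 13 at 240 h. At 48 h, 2 fell and 0 rose, at 72 h, 2 fell and 2 rose, and at 240 h, 2 fell and 0 rose. Their median log2 fold change was -0.33 at 48 h, 0.06 at 72 h and -0.26 at 240 h. Pgam2 was tested at 72 h alone, with 0.442 ± 0.24 FPKM (SD, n = 3) in 48 h ctrl and 0.836 ± 0.265 FPKM in 72 h kd. It passed the minimum of 0.5 FPKM only through the 72 h kd libraries, where it is high. At 72 h, 7 of 14 genes were lower in kd, so the sign of that median rests on Pgam2. Tpi1, the triose-phosphate isomerase, and Pgam1, the phosphoglycerate mutase, fell at 72 h, as Pgk1 and Pkm did. Tpi1 was at -0.54 ± 0.10 at 48 h, -0.72 ± 0.06 at 72 h (adjusted p = 0.000435, limma) and -0.49 ± 0.07 at 240 h. Pgam1 was at -0.46 ± 0.07 at 48 h, -0.92 ± 0.07 at 72 h (adjusted p = 0.000247, limma) and -0.26 ± 0.06 at 240 h. Aldoc shared the course of Ldhb, at -0.86 ± 0.15 at 48 h (adjusted p = 0.0168, limma), 0.50 ± 0.12 at 72 h (adjusted p = 0.0142, limma, short of the fold threshold) and -1.24 ± 0.08 at 240 h (adjusted p = 0.00031, limma). Tpi1 was also called at 48 h, at -0.59 each, without 48 h ctrl replicate 1, 48 h kd replicate 1 or 48 h kd replicate 3. The 48 h call of Aldoc was lost without 48 h ctrl replicate 2 (-0.87, adjusted p = 0.0639, limma), without 48 h ctrl replicate 3 (-0.78, adjusted p = 0.061) and without 48 h kd replicate 1 (-0.86, adjusted p = 0.052). At 72 h Aldoc was called at 0.58 without 48 h ctrl replicate 3, at 0.61 without 72 h kd replicate 1 and at 0.73 with 240 h ctrl in place of 48 h ctrl. Aldoc made up 1.32% ± 0.0762 (SD, n = 3) of the summed aldolase level per exonic kilobase in 48 h ctrl and 2.37% ± 0.255 in 72 h kd.

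**Figure D4:**
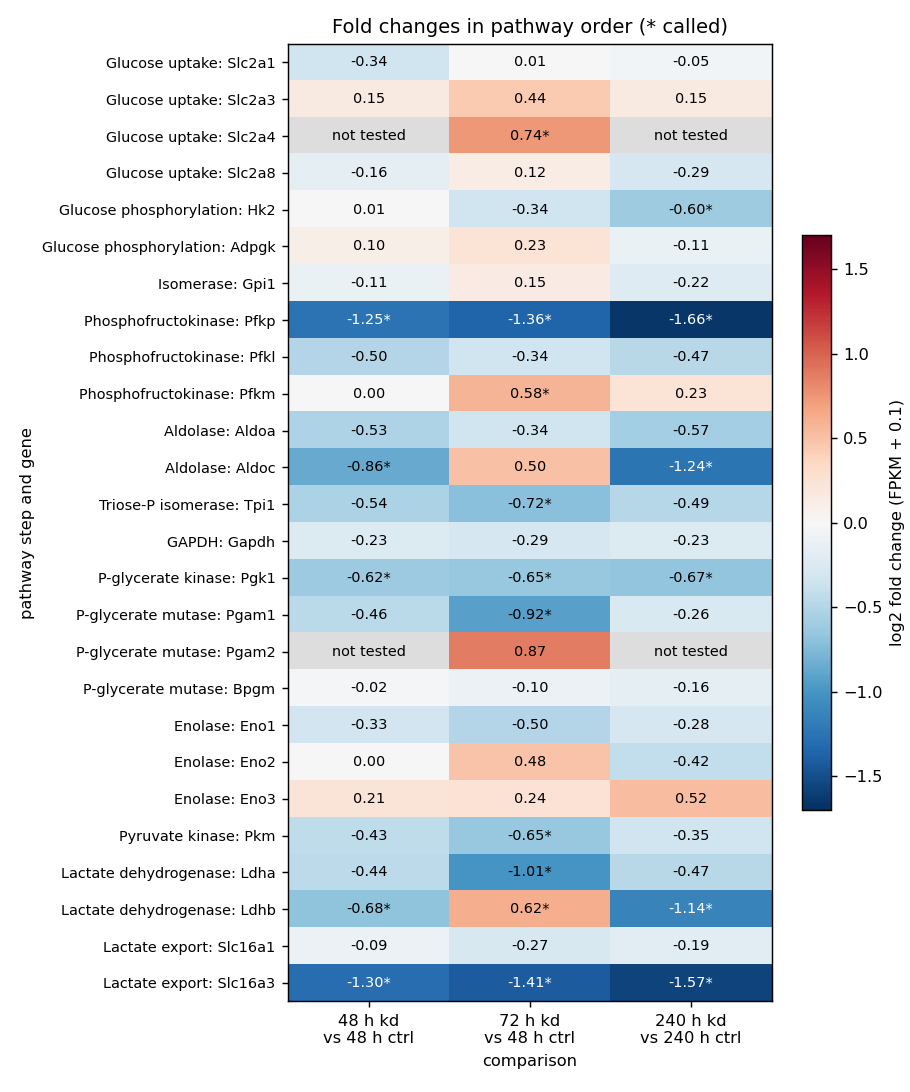
Log2 fold changes (FPKM + 0.1) of glycolysis, glucose uptake and lactate export genes in pathway order, with blue lower and red higher in kd, an asterisk for called genes and grey for genes under the FPKM minimum. The lower part of the pathway from Tpi1 to Ldha is blue except for Eno3 at all times, Eno2 at 48 h and 72 h, and Pgam2 and Ldhb at 72 h. Pgam2 passed the FPKM minimum at 72 h only through the kd libraries, where it is high. Eno1 is uncertain, as it has a near-identical copy and how reads matching both were counted is not given in the sources used here.

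Slc16a3 encodes Mct4, the exporter of lactate in glycolytic cells. It had 7.55, 7.70 and 7.98 FPKM in 48 h ctrl, 3.27, 2.76 and 3.25 FPKM in 48 h kd and 2.66, 2.89 and 3.02 FPKM in 72 h kd. The 240 h libraries had 7.68, 7.85 and 7.93 FPKM as ctrl and 2.32, 2.69 and 2.73 FPKM as kd. All 9 kd libraries lay below all 6 ctrl libraries. Slc16a3 fell by 1.30 ± 0.07 at 48 h (adjusted p = 0.00113, limma), by 1.41 ± 0.05 at 72 h (adjusted p = 4.47e-05, limma) and by 1.57 ± 0.07 at 240 h (adjusted p = 9.82e-05, limma) on the log2 scale. Slc16a3 shares 1879 bases with Csnk1d, which had a mean of 2398 reads against 740 and differed by -0.15 ± 0.03 at 48 h, 0.02 ± 0.03 at 72 h and 0.01 ± 0.03 at 240 h. Slc16a3 was the only gene called at 48 h and at 240 h of the 16 listed for hexose and lactate transport, of which 5 were tested at 48 h, 6 at 72 h and 4 at 240 h. At 72 h, Slc2a4, the insulin-responsive glucose transporter, was called too and rose by 0.74 ± 0.13 (adjusted p = 0.00594, limma) from a low level of 0.422 ± 0.0846 FPKM (SD, n = 3) to 0.763 ± 0.0547 FPKM. It passed the minimum of 0.5 FPKM only through the 72 h kd libraries, where it is high, and its call was lost with a pseudocount of 1, at 0.31, though not in the fit without the minimum (adjusted p = 0.0155, limma).

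Slc16a3 was also the gene whose pattern was most like that of Pfkp, the member with the widest range of group means (1.774 on the log2 scale). Likeness was the root mean square difference between 5 group means of log2(FPKM + 0.1), each gene centred, among 7287 candidates whose mean reached 1 FPKM. It was 0.108 for Slc16a3, 0.120 for Marcks, 0.154 for Nptx2, 0.170 for Atp1b1 and 0.174 for Fam129b. Marcks, a membrane-bound substrate of protein kinase C, had a mean of 16 ± 0.834 FPKM (SD, n = 3) in 48 h ctrl and of 12.8 ± 0.412 FPKM in 240 h ctrl, and of 6.94 ± 0.152, 6.3 ± 0.348 and 5.19 ± 0.219 FPKM after 48 h, 72 h and 240 h of knockdown. Nptx2, a neuronal pentraxin, ran from 2.42 ± 0.152 FPKM in 48 h ctrl to 0.803 ± 0.061 FPKM in 240 h kd, and Atp1b1, a subunit of the sodium pump, from 4.31 ± 0.166 FPKM to 1.27 ± 0.0621 FPKM. These genes were picked for this likeness, so it carries no test.

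**Figure D5:**
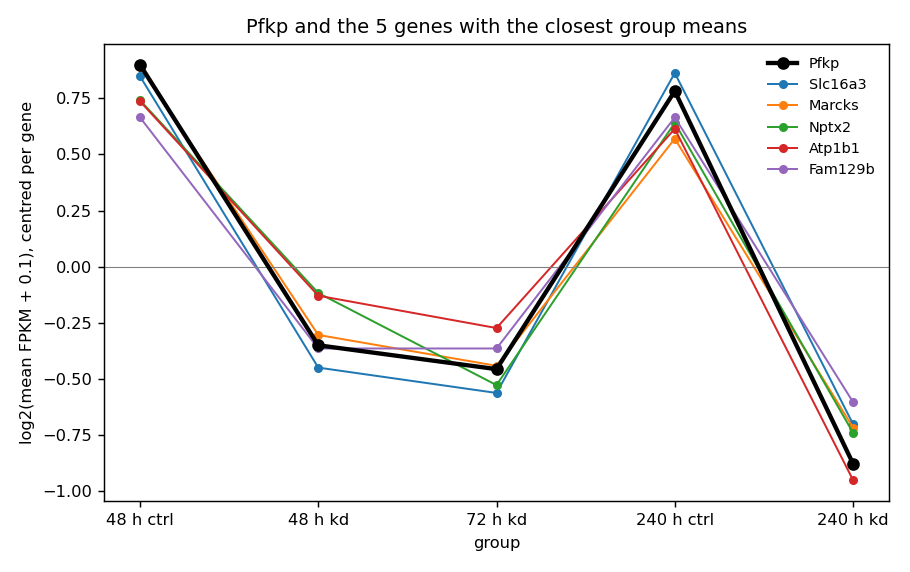
Group means of Pfkp and of the 5 genes with the most similar course, as log2(mean FPKM + 0.1) centred on each gene's mean over the 5 groups. All 6 genes are above their own mean in both ctrl groups and below it in the 3 kd groups.

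Of 21 regulators of glycolysis and of pyruvate entry into mitochondria, 0 of 16 were called at 48 h, 1 of 17 at 72 h and 0 of 15 at 240 h. The call was Txnip, which restrains glucose uptake and rose by 0.70 ± 0.05 at 72 h (adjusted p = 0.00026, limma) from 49.2 ± 2.36 FPKM (SD, n = 3) to 80.0 ± 3.99 FPKM. At 240 h Txnip went the other way, from 42.3 ± 0.595 FPKM in ctrl to 33.8 ± 1.16 FPKM in kd. Over 17 alternatives that difference was -0.35 to -0.31 on the log2 scale, short of the fold threshold, with an adjusted p of at most 0.0131 (limma). The antisense gene Gm15441 covers 100% of the Txnip span, so unstranded counts cannot tell them apart. Of the 10 genes of the pentose phosphate pathway, which branches off after hexokinase, 7 were tested and 1 was called, H6pd, which rose at 72 h by 0.64 ± 0.07 (adjusted p = 0.000708, limma). This call was lost with 240 h ctrl in place of 48 h ctrl, at 0.58 and just under the threshold, and with a pseudocount of 1, at 0.30. Of 7 genes of gluconeogenesis, 2 were tested and 0 were called in any knockdown comparison by limma, with an adjusted p under 0.05 for 1 of them at 72 h.

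Of 22 genes of the hypoxia response, a list that holds no member, 17 were tested in each knockdown comparison. At 48 h, 3 fell and 0 rose, at 72 h, 3 fell and 1 rose, and at 240 h, 2 fell and 1 rose, and the median log2 fold change was -0.05, -0.10 and -0.06. Bnip3, a mitophagy receptor, was called lower at all times, at -0.95 ± 0.08 at 48 h (adjusted p = 0.00284, limma), -0.62 ± 0.11 at 72 h (adjusted p = 0.00574, limma) and -0.63 ± 0.07 at 240 h (adjusted p = 0.00222, limma). Egln3, a prolyl hydroxylase that marks hypoxia-inducible factors, was at -0.78 ± 0.11 at 48 h (adjusted p = 0.0111, limma), -0.52 ± 0.09 at 72 h (adjusted p = 0.00477, limma, short of the fold threshold) and -1.37 ± 0.15 at 240 h (adjusted p = 0.0017, limma). Epas1, which encodes Hif2a, fell at 72 h by 0.69 ± 0.07 on the log2 scale (adjusted p = 0.000551, limma). Ddit4, an inhibitor of mTORC1 signalling, moved the other way and rose by 0.85 ± 0.04 at 72 h (adjusted p = 7.52e-05, limma) and by 0.81 ± 0.12 at 240 h (adjusted p = 0.00539, limma). The antisense gene Gm45507 overlaps 3712 bases of Bnip3, had a mean of 193 reads where Bnip3 had 266 and was itself called lower at all 3 times, so unstranded counts cannot say which of them fell. Both Bnip3 and Egln3 were low, with group means of 0.237 to 1.64 FPKM. Egln3 passed the minimum of 0.5 FPKM at 48 h (0.818 FPKM in ctrl, 0.438 FPKM in kd) and at 240 h (0.764 FPKM in ctrl, 0.237 FPKM in kd) only through the ctrl libraries, where it is high, and a pseudocount of 1 took both calls, at -0.34 and -0.51. In the fit without the minimum both held, with an adjusted p of 0.0245 at 48 h and of 0.00435 at 240 h (limma). The call of Bnip3 was lost at 72 h without 48 h ctrl replicate 2 (-0.55), without 72 h kd replicate 1 (-0.51) and with 240 h ctrl in place of 48 h ctrl (-0.39), and at 240 h without 240 h kd replicate 1 (-0.56). Egln3 was no longer called at 48 h without 48 h ctrl replicate 1 (adjusted p = 0.0511, limma) or replicate 2 (adjusted p = 0.0554, limma), and it was called at 72 h without 72 h kd replicate 3 (-0.58).

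Of 7 genes of the Myc family and its partners, 6 were tested. Myc had 11.4 ± 0.286 FPKM (SD, n = 3) in 48 h ctrl and 13.2 ± 0.619 FPKM in 240 h ctrl, and it had 24.1 ± 0.935, 10.2 ± 0.931 and 25.5 ± 1.89 FPKM after 48 h, 72 h and 240 h of knockdown. Myc rose by 1.07 ± 0.05 at 48 h (adjusted p = 0.000832, limma) and by 0.95 ± 0.07 at 240 h (adjusted p = 0.000392, limma), and it differed by -0.16 at 72 h (adjusted p = 0.0979, limma). Mycl fell by 0.73 ± 0.08 at 72 h (adjusted p = 0.000858, limma) and by 1.17 ± 0.07 at 240 h (adjusted p = 0.000183, limma) on the log2 scale, from 3.36 ± 0.341 FPKM (SD, n = 3) in 48 h ctrl and 3.02 ± 0.126 FPKM in 240 h ctrl, and it was at -0.53 ± 0.12 at 48 h (adjusted p = 0.0355, limma), where it was called without 48 h ctrl replicate 1 (-0.61) or 48 h kd replicate 3 (-0.63).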

How the data were processed

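RNA was sequenced in 15 libraries, 3 in each of 5 groups taken from the sample labels, which do not say that replicates were separate cultures, so p-values measure the spread between these samples. Per the submitters' processing notes, the authors used STAR 2.7.0c, the builds mm10 and GRCm38.p6, R 4.0.3 and, for their own tests, DESeq2 1.30.0. The authors deposited 1 FPKM value per gene and library, and their FPKM times gene span and library total gave whole reads for 100% of values above 0 (tolerance 0.001), so the depth is known. The counts cover the full span of a gene, introns and both strands included, and the sums over genes exceeded the totals by 7.38% to 8.34%, so values of overlapping genes are uncertain. For its peaks the study used a later GENCODE release and joined these to the RNA-seq data by gene ID, but the annotation behind the FPKM is not given in the sources used here; 96.5% of entries matched GENCODE M21, which gave identifiers, strand and exonic length. The 10 entries named as copies of Pgk1, Ldha or Aldoa had at most 11 reads in any library.

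Because FPKM are not counts, limma 3.58.1 in R 4.3.3 (trend in the prior variance, two-sided) was run on log2(FPKM + 0.1). It covered all genes that averaged 0.5 FPKM or more, in fits of the 6 libraries compared or of 12 for the interaction. The fits were also run on simulated counts with the same spread in every library. That run cannot show how the fits behave with an odd library such as 48 h kd replicate 2. Fold changes on this scale understate those of low genes. Replicates of a group differed by more than sampling noise in all 15 pairs (chi-square per degree of freedom of 1.3 to 11.3). Alternatives were another pseudocount or minimum, rescaling to TPM, centring, 1 fit of all libraries, no trend, a replicate block, leaving out each library, another control for 72 h, the adjusted p alone and, chosen after the data were seen, voom on the recovered reads and a minimum of 10 reads. The members and gene lists were chosen with earlier results of these data known. Named are all 10 members, of each other list at most the 4 genes with the largest change among those called in a knockdown comparison, and the 5 genes most like the member with the widest range; Pfkl and Pfkm were added after their values were seen, and the plot in pathway order shows genes whether called or not.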

Additional observations from a re-analysis of the deposited data

Results flagged for a closer look

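Between 240 h and 48 h the effect of the knockdown differed, by the interaction term and an adjusted p under 0.05 (limma), for 6 of the named genes, 3 of them among the 9 members tested, where 15.6% of all genes tested passed. For the members, the effect at 240 h minus that at 48 h was 0.29 on the log2 scale for Slc2a1 (adjusted p = 0.0125), -0.61 for Hk2 (adjusted p = 0.000262) and -0.40 for Pfkp (adjusted p = 0.0396), which did not pass under 12 of 23 alternatives. Outside the members it was -0.46 for Ldhb (adjusted p = 0.0154), -0.39 for Txnip (adjusted p = 0.00209) and -0.65 for Mycl (adjusted p = 0.0129). Hk2 and Mycl alone also passed the fold threshold, and Mycl fell short of it without 48 h ctrl replicate 1 (-0.56), without 48 h kd replicate 3 (-0.54) and with a pseudocount of 1 (-0.42). Groups of 3 libraries are too small for a test of single outlying libraries.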

How the results depend on the processing

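Of 474 values of the members under alternatives in the 3 knockdown comparisons, 464 kept their side of the thresholds, 6 lost a call, 4 gained one and 0 changed direction while called. With the adjusted p alone as threshold, 5 members passed at 48 h, 8 at 72 h, 8 at 240 h, 5 between 72 h kd and 48 h kd and 3 in the interaction. Leaving out each library in turn gave 1 to 2 members called at 48 h (1 without 48 h kd replicate 2), 4 to 4 at 72 h, 2 to 4 at 240 h, 0 to 1 between 72 h kd and 48 h kd and 0 to 1 in the interaction. A pseudocount of 1 left 0 in the interaction (Hk2, -0.55) and took the call from Hk2 at 240 h (-0.54). Replicate numbers paired no samples (15 pairs of deviations, r from -0.10 to 0.12, 1 above 0.1). With the replicate block, 1 member was called at 48 h, as Pgk1 was at -0.62 with an adjusted p of 0.0565 (limma), 285 genes were called in place of 456, 0 in place of 54 between the ctrl groups, and no other member's call changed. With 240 h ctrl in place of 48 h ctrl at 72 h, Slc2a3 (0.60) gained and Pgk1 (-0.47) lost its call.

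Counts over all genes varied with the settings too. At 48 h, 72 h and 240 h, a pseudocount of 1 called 208, 745 and 541 genes, no FPKM minimum 642 at 48 h, 2500 at 72 h and 1768 at 240 h (1016 otherwise), and a minimum of 2 FPKM 208, 768 and 453. Chosen after the data were seen, voom called 1472, 3640 and 2995, and a minimum of 10 reads 720 at 48 h and 1656 at 240 h. Between 72 h kd and 48 h kd (857 genes), a pseudocount of 1 called 365, a minimum of 2 FPKM 407 and voom 2095, and in the interaction (664) these called 333, 324 and 1706, with 1051 without a minimum and 1123 with 10 reads. Between the ctrl groups the number ran from 2 to 10 with a library left out, and it was 27 with a pseudocount of 1, 32 with 2 FPKM, 31 without a trend, 100 in 1 fit of all libraries, 168 as TPM and 212 with voom. For 17 further genes (those named from the lists by the rule, Pfkl, Pfkm and Smarcb1), 789 of 830 values kept their side, 28 lost and 13 gained a call and 0 reversed, while alternatives were not run for the other genes most like Pfkp, for neighbours or for cell type markers; Bnip3 and Egln3 lost all 5 of their calls with a pseudocount of 1. That pseudocount also took the calls of H6pd (0.30), Slc2a4 (0.31), Pfkm (0.36), Epas1 (-0.42), Mycl (-0.55) and Ldhb (0.55) at 72 h and of Ldhb at 48 h (-0.57). Counting error bears on low genes such as Aldoc (83 to 382 reads a library) and Bnip3 (159 to 396), and Hk1 (437 to 739) was left out by the FPKM minimum over its long span.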
